A study of Mus musculus with 8 samples.

Results

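FGF4 was supplied to mouse embryonic stem (ES) cells that lack the Fgf4 gene, and their RNA was compared after 3 days with that of the same cells given no growth factor. The comparison uses 4 of the 8 arrays of the series, chosen by their titles: those marked FGF with the control shRNAs shRnd1 and shRnd2, and those marked NoGF with the same shRNAs. All cells were FGF4-/- cells of the R1 mESC line, with the strain background given as 129X1/SvJ together with 129S1/SV-+p+Tyr-cKitlSl-J/+, and all carried an shRNA vector, so the controls share the deletion and the infection. They first spent a night in N2B27, a medium without serum, to which Bmp4 was added at 10 ng/ml. The FGF4 group then received FGF4 at 20 ng/ml for 3 days, and the other group received no factor. The other 4 arrays of the series hold control shRNA cells with LIF at 10 u/ml (2 arrays) and cells with FGF4 and the Mp1 shRNAs shMp1Lib and shMP1G (2 arrays). They entered the fit for its estimate of spread, and their levels are given beside the leading genes. Whether the 2 samples of each group were grown as separate cultures, and whether Bmp4 stayed in the medium, is not stated in the labels. The 4 groups are of 1 cell line.

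FGF4 is a secreted growth factor that binds FGF receptors together with heparan sulfate and signals mainly through RAS, RAF, MEK and ERK. ES cells make FGF4 themselves, and its signal moves them from naive pluripotency, the ground state that LIF and STAT3 maintain, towards the formative and primed states of the epiblast, from which they can enter a lineage. ES cells without Fgf4 make little of that move until the factor is added back. ERK signalling also raises its own inhibitors, among them the Dusp phosphatases and the Sprouty and Spred proteins.

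The array measured 45281 probes. Between 15375 and 17813 were detected per array, with a detection p-value under 0.05, and 15746 and 16471 were detected with FGF4 against 16110 and 15875 without. After filtering, 14103 features were tested, of which 8933 were named genes, each represented by its brightest probe. Levels are normalized log2 intensities, on which the lowest detected signal of an array lay between 5.25 and 5.59. Pairs of values are in the order shRnd1, shRnd2. Each group has 2 arrays, which limits the precision. The SEs and p-values rest on a spread pooled within the 4 groups of the series, which may be technical. Over all features the SD within the group was 0.213 log2 units with FGF4 and 0.184 without, and 5.65% and 3.96% of features differed by more than 1.5-fold between the arrays of the group. The SD was 0.293 on the arrays labelled LIF and 0.438 on those with FGF4 and an Mp1 shRNA, which carry different shRNAs, and both entered the pooled spread. The ES cell marker Pou5f1 had an intensity before normalization of 18780 and 16480 with FGF4 and 15340 and 15690 without. Of 14 ES cell markers 8 had a named probe and 6 were detected on all 4 arrays, while Esrrb and Epcam were detected on none. Intensities before normalization, summed over the 8 probes, were 57562 and 49388 with FGF4 and 40675 and 44732 without. Dppa5a gave 30330 and 25280 of these with FGF4 and 21450 and 24940 without. After normalization neither Pou5f1 nor Dppa5a passed the test used below. Of 12 fibroblast and feeder markers 10 had a probe and 2, Thy1 and Twist1, were detected on all 4 arrays, with sums over the list of 1302 and 1097 against 921 and 983, and the collagen genes Col1a1, Col1a2 and Col3a1 were detected on none. In bulk RNA, a change in the number of cells of a type and a change in the RNA per cell cannot be told apart.

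One observation goes against the labels and touches every result. Socs3, a feedback inhibitor that LIF induces through STAT3, read 11.04 and 11.01 on the arrays labelled no growth factor and 7.67 and 7.64 on the arrays labelled LIF. Bcl3, another STAT3 target, read 7.50 and 7.61 and 6.37 and 5.76, and Stat3 itself 6.71 and 7.28 and 5.97 and 5.86, in the same order. The naive factor Klf4, also a STAT3 target, overlapped between these groups (10.35 and 10.09, and 10.31 and 9.69). The labels were followed, and the groups are called by them. For this reason the difference between the FGF4 arrays and the arrays labelled LIF is given for the leading genes, and those comparisons share the FGF4 arrays with the main one.

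**Figure D1:**
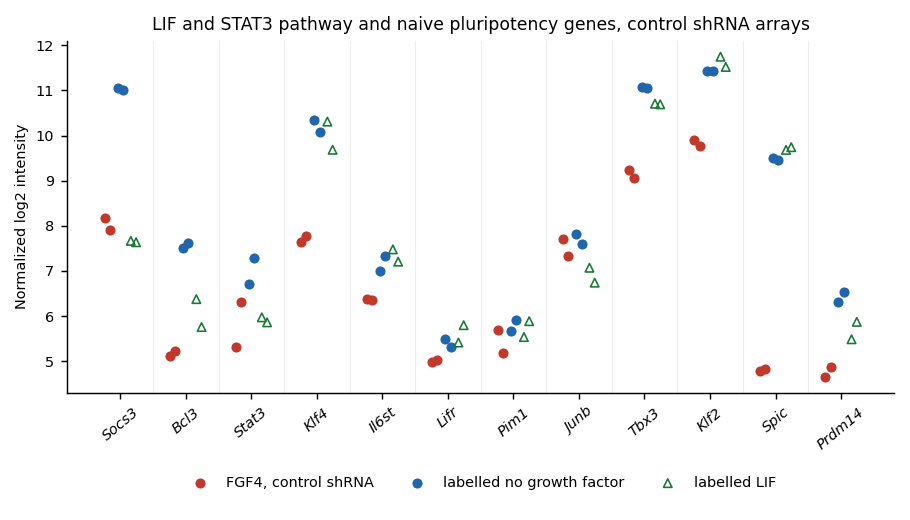
Levels (normalized log2 intensity, vertical axis) of 12 genes of the LIF and STAT3 pathway and of naive pluripotency on the 6 control shRNA arrays, with 1 point per array and colours and shapes for the 3 groups. Socs3 read 11.04 and 11.01 on the arrays labelled no growth factor against 7.67 and 7.64 on those labelled LIF, while Klf2, Spic and Tbx3 were higher in both of these groups than with FGF4.

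Of the 14103 features 1106 rose with FGF4 (7.84%) and 1099 fell (7.79%) by limma's moderated test with Benjamini-Hochberg adjustment at 0.05. Among the 8933 named genes 871 rose (9.75%) and 553 fell (6.19%), so 15.9% changed, with a median difference over all named genes of 0.03 log2 units. By size, 575 named rises and 354 named falls were at least 2-fold on the fitted scale. A group of 258 named genes rose from no detection on either array without factor to detection on both FGF4 arrays, and 160 were detected on both arrays without factor and on neither FGF4 array. For these genes the change is a lower bound, written as at least so many fold, with the dim group set at the lowest detected signal. NoGF stands for the arrays labelled no growth factor where single arrays are named. Leaving out any 1 of the 8 arrays left the call of 360 named rises and 202 named falls standing. With 1 of the 4 arrays compared left out, the number of calls over all features was 1008 to 1123 in place of 2205. With the arrays labelled LIF in place of those labelled no growth factor, 1124 features were higher with FGF4 and 1088 lower.

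**Figure D2:**
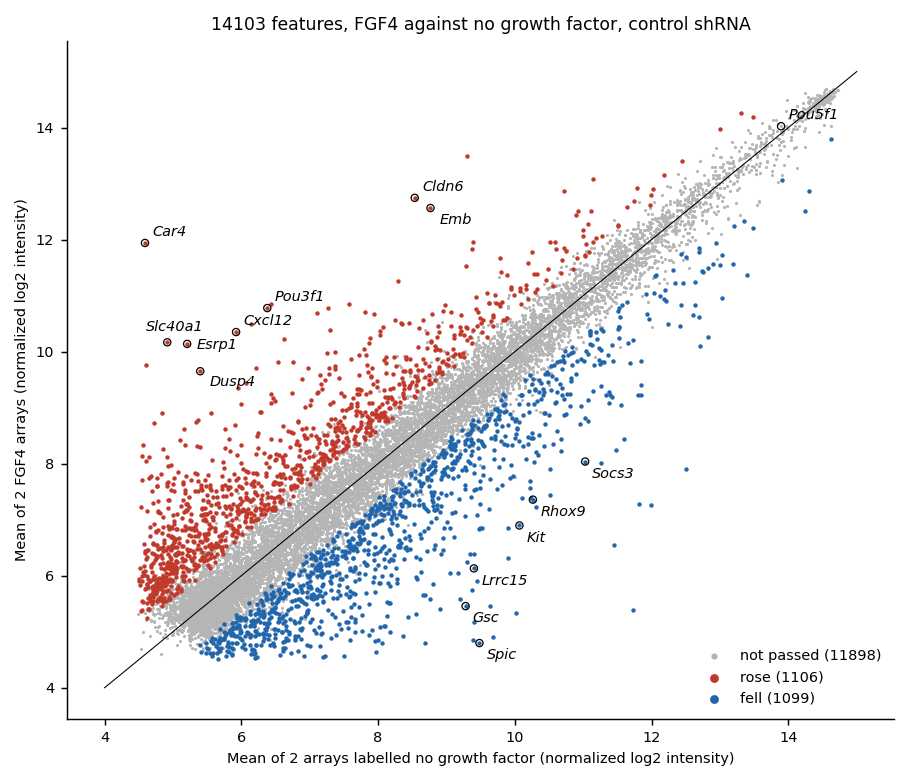
Mean level on the 2 FGF4 arrays (vertical axis) against the mean on the 2 arrays labelled no growth factor (horizontal axis), both as normalized log2 intensity, for 14103 features. The 1106 rises are red, the 1099 falls blue and the 11898 that did not pass grey, the line marks equality, and circled genes are named in the text.

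The rises were led by Car4, a carbonic anhydrase anchored on the outer cell membrane, which read 11.92 and 11.96 with FGF4 and 4.67 and 4.51 with no growth factor. It was detected on both FGF4 arrays and neither of the others, a rise of at least 87.8-fold (adjusted p = 6.12e-06). The arrays labelled LIF read 5.88 and 6.47, and those with FGF4 and an Mp1 shRNA 11.12 and 11.39. Slc40a1, which encodes the iron exporter ferroportin, read 10.13 and 10.20 against 5.02 and 4.82 and rose at least 25.7-fold (adjusted p = 2.55e-05). Esrp1, a splicing regulator that holds epithelial isoforms in place, read 10.16 and 10.12 against 5.26 and 5.15 and rose at least 25.2-fold (adjusted p = 2.55e-05). Against the arrays labelled LIF, Car4, Slc40a1 and Esrp1 differed by 5.76, 5.01 and 4.11 (adjusted p = 1.76e-05, 4.23e-05 and 7.03e-05). These 3 genes were chosen for the size of their rise, so the distance between their groups is not separate evidence.

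The POU factor Pou3f1 (Oct6), a marker of the formative and primed epiblast, read 10.82 and 10.74 with FGF4 and 6.42 and 6.34 without, a rise by 4.40 ± 0.23 log2 units (SE; adjusted p = 2.55e-05). The chemokine gene Cxcl12 read 10.36 and 10.34 against 6.11 and 5.74 and rose by 4.43 ± 0.21 log2 units, while its receptor gene Cxcr4 differed by -0.13 and did not pass (adjusted p = 0.835). The retinoid-binding protein gene Rbp7 read 10.56 and 10.44 against 6.00 and 6.28. It rose by 4.36 ± 0.46 log2 units (adjusted p = 0.000545), and with the Mp1 shRNAs it read 7.91 and 9.57. The tight junction gene Cldn6 was among the brightest of the rises, at 12.75 and 12.74 against 8.56 and 8.51, a change of 4.21 ± 0.17 log2 units (adjusted p = 1.04e-05). Emb, a cell adhesion protein of the immunoglobulin family that assists monocarboxylate transporters, read 12.42 and 12.71 against 8.70 and 8.84 and rose by 3.80 ± 0.31 log2 units. Against the arrays labelled LIF, the differences of Pou3f1, Cxcl12, Rbp7, Cldn6 and Emb were 3.60, 3.13, 3.98, 3.64 and 2.90 (adjusted p = 7.15e-05, 0.000112, 0.000932, 2.97e-05 and 0.000663). The remaining members of the 25 largest named rises cover several functions. Kif1a, an axonal kinesin motor, rose by 3.60 log2 units, the small GTPase gene Rab25, which directs recycling endosomes in epithelia, by 3.41 log2 units, and the potassium channel gene Kcnk1 by 3.27 log2 units. Myl9, a myosin regulatory light chain, read 8.27 and 7.96 with FGF4 and 4.69 and 4.60 without. It rose at least 6.18-fold, and on the arrays with FGF4 and an Mp1 shRNA it read 4.79 and 5.25. The transcription factor genes Sox11, Evx1 and Msx1 rose at least 8.83-fold, by 3.37 log2 units and by 3.28 log2 units. Tmem54 rose at least 9.44-fold, Vrtn at least 5.89-fold, the LIM protein gene Pdlim3 at least 7.21-fold and the ephrin receptor gene Epha1 at least 4.9-fold.

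Spic, an Ets-family transcription factor gene expressed in naive ES cells, led the falls among named genes. It read 9.51 and 9.46 with no growth factor and 4.78 and 4.82 with FGF4, where it was not well above background, a fall of at least 16.2-fold (adjusted p = 6.12e-06). The arrays labelled LIF read 9.68 and 9.74. The organizer homeobox gene Gsc read 9.30 and 9.26 without factor and 5.59 and 5.32 with it and fell by 3.82 ± 0.18 log2 units (adjusted p = 2.16e-05), with levels of 7.84 and 8.05 on the arrays labelled LIF. Kit, the receptor for stem cell factor, read 9.96 and 10.17 against 6.90 and 6.90 and fell by 3.17 ± 0.21 log2 units (adjusted p = 6.37e-05). Spic, Gsc and Kit were chosen for the size of their fall, so the gap between their pairs of arrays is not separate evidence. Against the arrays labelled LIF Spic, Gsc and Kit differed by -4.92, -2.49 and -2.14 (adjusted p = 8.28e-06, 0.000129 and 0.000407). Socs3 fell by 2.99 ± 0.18 log2 units (adjusted p = 5.07e-05) against the arrays labelled no growth factor, while against the arrays labelled LIF it differed by 0.39 and did not pass (adjusted p = 0.201). Osm, which encodes oncostatin M, a cytokine of the LIF family, read 8.06 and 8.20 and 5.35 and 5.20 and fell at least 6.35-fold, while a second Osm probe differed by -0.28 (adjusted p = 0.456) and did not pass. Genes of metabolism among the 25 largest named falls were Gpat3, an acyltransferase of triglyceride synthesis, which fell at least 6.53-fold, the aldehyde dehydrogenase gene Aldh3a1 (at least 5.42-fold), the adenylate kinase gene Ak4 (by 2.66 log2 units), the aquaporin gene Aqp3 (by 2.63 log2 units) and Slc51a, a subunit of the steroid and bile acid transporter (at least 5.63-fold). The sulfotransferase gene Chst3, which acts on chondroitin, fell by 3.49 log2 units, the guidance factor gene Slit2 at least 3.32-fold, and Lrrc15 by 3.27 log2 units. The pepsinogen gene Pga5 fell by 3.62 log2 units. Genes known from germ cells and the early embryo were also there. Aurkc, the meiotic Aurora kinase, fell at least 5.3-fold, and Crxos, a homeobox gene of ES cells and early embryos, at least 5.87-fold.

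**Figure D3:**
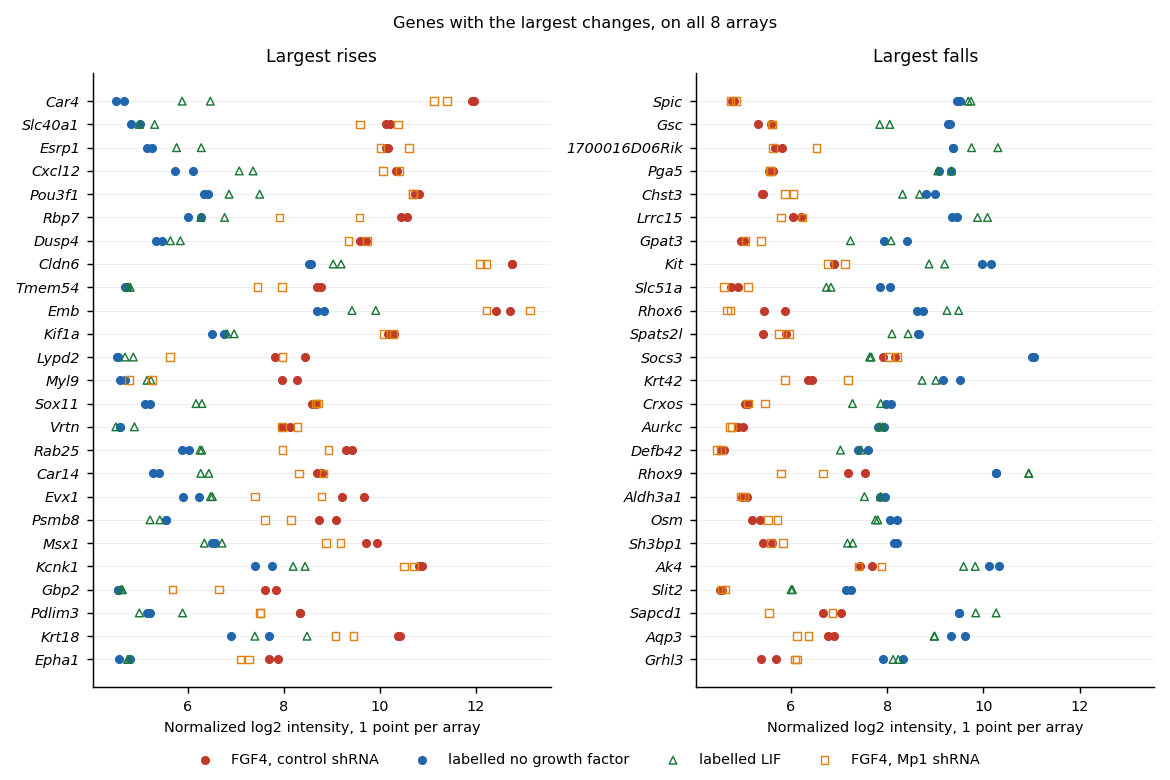
Levels on all 8 arrays (normalized log2 intensity, horizontal axis) of the 25 largest named rises and the 25 largest named falls, with 1 point per array and 4 groups marked by colour and shape. Car4 lies at 11.92 and 11.96 with FGF4 and at 4.67 and 4.51 without factor, and Myl9 and Rbp7 lie lower on the arrays with an Mp1 shRNA (4.79 and 5.25, 7.91 and 9.57) than on the FGF4 arrays with a control shRNA (8.27 and 7.96, 10.56 and 10.44).

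The promoters of the changed genes were searched for 6 short motifs, to show the DNA next to genes that moved. RefSeq windows of 300 bases (250 before to 50 after the start, GRCm38.p6) existed for 7230 of the 8933 named genes, among them 679 rises and 423 falls. Below are the 200 bases before the start of 3 genes, lower case with motif matches in capitals: Socs3 and Psmb8 because each has a STAT motif (TTCNNNGAA, its own reverse complement) and they moved in opposite directions, and Car4, the largest rise, because the stretch shown held none of them. A stretch that matches more than 1 motif counts under each. The Socs3 window lies on the minus strand at chr11:117969367-117969566 and also has a match to the Sox or TCF-like letters ACAAAG on its other strand. The Psmb8 window is on the plus strand at chr17:34197995-34198194 and the Car4 window on the plus strand at chr11:84957554-84957753.
Socs3: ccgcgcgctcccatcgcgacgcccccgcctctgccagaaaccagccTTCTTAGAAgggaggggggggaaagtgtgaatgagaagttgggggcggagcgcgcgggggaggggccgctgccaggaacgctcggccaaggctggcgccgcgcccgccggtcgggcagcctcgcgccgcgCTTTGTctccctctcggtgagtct
Psmb8: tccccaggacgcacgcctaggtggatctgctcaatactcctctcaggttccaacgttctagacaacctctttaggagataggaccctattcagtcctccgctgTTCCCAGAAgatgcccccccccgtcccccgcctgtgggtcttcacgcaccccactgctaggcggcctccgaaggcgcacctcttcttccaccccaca
Car4: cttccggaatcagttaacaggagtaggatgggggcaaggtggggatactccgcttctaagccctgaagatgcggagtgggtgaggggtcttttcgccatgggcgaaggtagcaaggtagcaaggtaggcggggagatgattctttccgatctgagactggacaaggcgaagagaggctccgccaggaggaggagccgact
A match is a stretch of letters and not a bound site. The STAT letters were found, on either strand, in the windows of 7.95% of the genes that rose, 9.93% of those that fell, 8.06% of those that did not pass and 9.55% of all 27025 genes in the promoter table. The longer Ets letters CCGGAAGT were in 3.53% of the rises, 4.96% of the falls and 10.3% of the genes that did not pass, against 4.31% of all genes in the table. The AP-1 letters TGANTCA were in 6.77%, 5.91% and 6.05% of the same 3 sets, and the Sox or TCF-like letters (ACAAAG or ACAATG) in 18.4%, 24.8% and 23%, against 8.97% and 31.7% in the whole table. The cyclic AMP response letters TGACGTCA were in 2.65%, 2.6% and 3.7%, and the octamer ATGCAAAT in 2.36%, 2.6% and 1.63%, against 2.03% and 1.97% in the whole table. These shares are descriptions and were not tested.

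Genes were then read by function, in lists of which a member counts as measured when its probe passed the filter. The lists were chosen with earlier results of these data known, some genes stand in more than 1 list, and the counts carry no test. The median difference of a list is given beside its counts, and again with genes undetected in a group set at their bound where that moves it. Where leaving out 1 of the 4 arrays compared moved a count by over 1.5 times, the 4 counts follow in brackets in the order without FGF4 shRnd1, FGF4 shRnd2, NoGF shRnd1 and NoGF shRnd2. Where a second probe of a named gene gave another call than the brightest, it is given beside the gene. The backgrounds for every list are the 9.75% of named genes that rose, the 6.19% that fell and the median of 0.03.

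Ligands and receptors of the FGF family were seldom well measured: 8 of 22 listed genes passed the filter, and of these 3 rose and 1 fell (1, 0, 0 and 1 falls with 1 array left out). Fgfbp1, a carrier that releases FGFs from the matrix, rose by 2.86 ± 0.27 log2 units, and Fgf13, an intracellular member of the family, by 2.15 ± 0.18 log2 units, but a second Fgf13 probe differed by 0.20 (adjusted p = 0.713) and did not pass. The receptor gene Fgfr2 read 5.97 and 5.38 with FGF4 and 5.71 and 5.17 without and did not pass (adjusted p = 0.674). Of the heparan sulfate enzymes and proteoglycans that FGF receptors need, 2 of 17 rose and 2 fell (1, 1, 1 and 1 rises with 1 array left out). Sulf1, which removes sulfate from heparan chains outside the cell, rose by 1.87 ± 0.26 log2 units. The sulfotransferase genes Hs6st1 and Hs3st1 fell by 1.40 ± 0.21 log2 units and by 1.42 ± 0.23 log2 units.

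Genes of the kinase cascade itself did not pass the test. None of 12 measured genes of the RAS, RAF, MEK and ERK core was called in either direction by limma, with 2 at an unadjusted p under 0.05, and their median difference was -0.02. In the fit of the 6 control shRNA arrays 0 rose and 1 fell, and without background correction 1 rose and 1 fell. Nras differed by 0.44 and Map2k1 by -0.70 (adjusted p = 0.128 and 0.0502). Its feedback and early response genes behaved otherwise, with 10 of 17 rising, 2 falling (2, 1, 1 and 1 falls with 1 array left out) and a median of 0.97 (0.80 with bounds). Dusp4, a nuclear phosphatase of ERK, read 9.59 and 9.71 with FGF4 and 5.46 and 5.34 without, and rose at least 18-fold (adjusted p = 2.16e-05). The Ets factor gene Etv4, a standard FGF target, read 9.40 and 9.58 against 7.25 and 7.21 and rose by 2.26 ± 0.17 log2 units, and against the arrays labelled LIF it was 3.06 higher. Il17rd (Sef), an inhibitor of FGF signalling at the membrane, rose by 1.74 ± 0.19 log2 units and Spred1, an inhibitor of RAF activation, by 1.65 ± 0.21 log2 units. A second Il17rd probe differed by 0.50 (adjusted p = 0.0996) and did not pass. In the list 5 genes did not pass, among them the Sprouty gene measured, which differed by 0.80 (adjusted p = 0.0822). Dusp2 and Jun rose at least 1.42-fold and at least 1.91-fold. The immediate early gene Egr1 went the other way. It read 8.73 and 8.82 without factor and 7.05 and 6.85 with FGF4 and fell by 1.82 ± 0.18 log2 units (adjusted p = 0.000347), and it was -0.95 against the arrays labelled LIF. Fos read 7.04 and 6.95 without factor, 6.11 and 5.51 with FGF4 and 5.48 and 6.19 on the arrays labelled LIF. It fell by 1.19 ± 0.28 log2 units against no growth factor (adjusted p = 0.0228), a call lost without 1 array (adjusted p up to 0.175 without FGF4 shRnd2). Calls of Phlda1, Dusp5 and Myc, which rose by 1.76, 0.97 and 0.65 log2 units on the fitted scale, were also lost without 1 array (adjusted p up to 0.0978 without NoGF shRnd1, 0.142 without FGF4 shRnd2 and 0.235 without NoGF shRnd2).

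Genes of the LIF and STAT3 pathway lay lower with FGF4 than on the arrays labelled no growth factor, with 4 falls and 0 rises among 10 measured and a median of -0.69. Against the arrays labelled LIF the median was -0.19, with 3 genes lower. Bcl3 read 5.11 and 5.23 with FGF4 and fell at least 4.25-fold (adjusted p = 0.0003). Il6st, which encodes gp130, the shared signalling subunit of LIF-family receptors, read 6.37 and 6.34 against 7.00 and 7.33. It fell by 0.80 ± 0.21 log2 units (adjusted p = 0.0317), and the call was lost without 1 array (adjusted p up to 0.24 without NoGF shRnd2). The ligand-binding subunit Lifr read 4.97 and 5.03 against 5.48 and 5.31 and did not pass (adjusted p = 0.413).

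Among genes of the BMP and SMAD pathway, 4 of 14 genes rose and 1 fell. Id1, a helix-loop-helix inhibitor that BMP induces and that restrains neural differentiation, read 12.95 and 12.80 with FGF4 and 10.55 and 10.87 without and rose by 2.16 ± 0.29 log2 units (adjusted p = 0.00167). Its relative Id3 read 9.88 and 9.60 against 7.49 and 7.25 and rose by 2.37 ± 0.32 log2 units, and Msx1, a homeobox target, read 9.93 and 9.70 against 6.56 and 6.50. Gata2 fell by 1.55 ± 0.21 log2 units. Against the arrays labelled LIF the differences of Id1 and Id3 were 1.37 and 1.37. In the Nodal and activin list, 3 of 13 rose and 2 fell (0, 0, 0 and 0 falls with 1 array left out). The Nodal inhibitor genes Lefty1 and Lefty2 went in opposite directions. Lefty1 read 9.67 and 9.16 with FGF4, 8.05 and 7.78 without factor and 10.07 and 9.82 on the arrays labelled LIF, and rose by 1.50 ± 0.23 log2 units against no growth factor, while against LIF it differed by -0.53 (adjusted p = 0.187). Lefty2 read 8.07 and 7.94 against 9.34 and 8.92 and fell by 1.12 ± 0.27 log2 units, a call lost without 1 array (adjusted p up to 0.19 without NoGF shRnd1). Gdf1, a ligand that pairs with Nodal, rose by 2.63 ± 0.22 log2 units, and Nodal itself differed by 0.50 and did not pass (adjusted p = 0.264).

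Wnt pathway genes split, with 6 of 16 rising and 3 falling (2, 1, 1 and 2 falls with 1 array left out). The receptor genes Fzd7 and Fzd2 rose by 2.34 ± 0.20 log2 units and at least 1.87-fold, while the receptor gene Fzd5 fell by 1.32 ± 0.22 log2 units. The feedback targets Axin2, a scaffold that promotes beta-catenin breakdown, and Sp5, a transcription factor, rose at least 2.16-fold and at least 1.5-fold. Axin2 read 6.64 and 6.55 with FGF4, 4.96 and 5.07 without factor and 4.78 and 4.88 with LIF by label. Among Notch and Hedgehog genes 4 of 13 rose and 2 fell (1, 2, 1 and 2 falls with 1 array left out): Hes6, a helix-loop-helix factor, rose by 2.13 ± 0.24 log2 units, the Notch ligand gene Jag2 by 1.33 log2 units and the Hedgehog effector gene Gli3 by 1.58 log2 units, and the Hedgehog-binding protein gene Hhip fell at least 2.04-fold. Of 14 measured ephrins, semaphorins and plexins 4 rose and 0 fell. The ephrin ligand genes Efnb2 and Efna5 rose at least 2.14-fold and at least 2.05-fold. Rbp7 was followed in the retinoid list by Crabp2, a retinoic acid carrier, at 6.91 and 6.81 against 5.24 and 5.20, and 4 of 6 measured genes of that list rose (1, 1, 1 and 2 rises with 1 array left out). The call of Crabp2 was lost without 1 array (adjusted p up to 0.151 without NoGF shRnd2), and the retinoic acid hydroxylase gene Cyp26a1 differed by -0.25 and did not pass. Egfr, the receptor of epidermal growth factor, rose at least 2.65-fold by its brightest probe while its other probes differed by 0.54 and 0.79 (adjusted p = 0.0923 and 0.0779) and did not pass, and Pdgfc, a platelet-derived growth factor gene, fell by 1.37 ± 0.19 log2 units.

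Most measured naive pluripotency genes fell and most formative ones rose. Of 11 measured naive genes (of 20 listed) 8 fell, 0 rose and 3 did not pass, with a median of -1.66 (-1.59 with bounds), and 7 falls kept their call whichever array was left out. Against the arrays labelled LIF 8 were lower and the median was -1.56. Klf4 read 7.63 and 7.76 with FGF4 against 10.35 and 10.09 and fell by 2.52 ± 0.34 log2 units (adjusted p = 0.00165). Tbx3, a T-box factor of the naive network, read 9.23 and 9.06 against 11.08 and 11.06 and fell by 1.93 ± 0.19 log2 units (adjusted p = 0.000377). Both genes are named here because they passed the test, so the gap between their groups adds nothing to it. Klf2, a second Kruppel-like factor of that network, read 9.89 and 9.78 against 11.43 and 11.43 and fell by 1.59 ± 0.20 log2 units, and Dppa3 (Stella), a protector of maternal DNA methylation, read 5.97 and 5.47 against 7.37 and 7.46 and fell by 1.69 ± 0.22 log2 units. Prdm14, which represses FGF receptor genes and de novo methylation genes in ES cells, read 4.66 and 4.86 against 6.31 and 6.53 and fell at least 1.93-fold. Pecam1, a surface antigen of naive cells, fell by 1.66 ± 0.22 log2 units and Alpl, alkaline phosphatase, by 1.26 ± 0.23 log2 units, the latter not without 1 array (adjusted p up to 0.0697 without NoGF shRnd1). Dppa5a was among the brightest genes in both groups, at 14.61 and 14.66 against 14.62 and 14.41, and did not pass (adjusted p = 0.736), and neither did Zscan10 (-0.16) or Nr5a2 (-0.60).

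Of 9 measured formative and primed genes (of 22 listed) 7 rose and 0 fell, with a median of 2.47 (2.33 with bounds). Besides Car4, Pou3f1, Cldn6 and Etv4, they were Dnmt3b, the de novo DNA methyltransferase of the epiblast, which read 8.24 and 8.39 against 5.62 and 5.09 and rose by 2.96 ± 0.23 log2 units (adjusted p = 0.000137), Sox4, which rose at least 5.02-fold while a second Sox4 probe differed by 0.29 (adjusted p = 0.417), and Grhl2, an epithelial grainyhead factor at 8.18 and 8.49 against 6.66 and 7.02. The rise of Grhl2 did not pass without 1 array (adjusted p up to 0.0543 without NoGF shRnd1). Etv4, Cldn6 and Grhl2 are also counted in the ERK feedback, tight junction and epithelium lists. The formative list, which holds the leading rise Car4, was chosen with earlier results of these data known. Zic2 read 6.11 and 5.57 against 5.14 and 5.85 and did not pass (adjusted p = 0.505), while a second Zic2 probe passed with a difference of 1.16 (adjusted p = 0.013). Of 10 measured genes shared by naive and primed cells 5 rose and 0 fell (4, 2, 2 and 4 rises with 1 array left out). Pou5f1 (Oct4) read 13.94 and 14.10 with FGF4 and 13.91 and 13.87 without, a difference of 0.13 (95% confidence interval -0.34 to 0.61) that did not pass (adjusted p = 0.769). Utf1, a chromatin factor of undifferentiated cells, read 11.46 and 11.37 against 9.79 and 9.79 and rose by 1.62 ± 0.26 log2 units, and Dppa4 rose by 1.25 ± 0.19 log2 units. Dppa2, Lin28a and Lin28b, the latter pair RNA-binding blockers of let-7 processing, rose by 1.11, 1.04 and 1.04, and their calls were lost without 1 array (adjusted p up to 0.0711 without NoGF shRnd1, 0.0764 without NoGF shRnd1 and 0.0861 without FGF4 shRnd2). One of 3 probes of Lin28a, at 0.94 (adjusted p = 0.156), did not pass in the full set either.

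**Figure D4:**
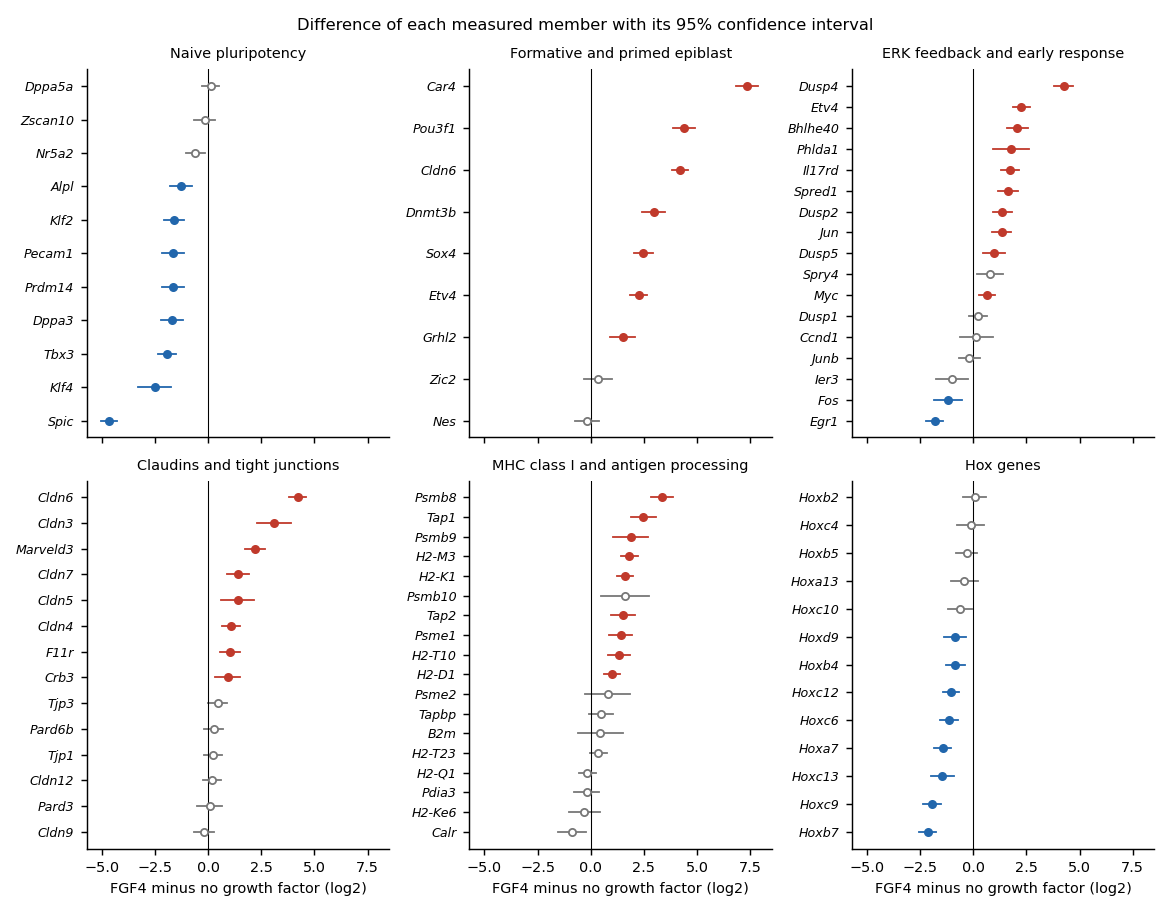
Difference between FGF4 and no growth factor in log2 units (horizontal axis) for each measured member of 6 gene lists, with the 95% confidence interval as a line. Filled points passed the test (red rose, blue fell) and open points did not. In the naive list 8 of 11 genes fell and in the formative list 7 of 9 rose, and in the Hox list 8 of 13 fell and 0 rose. The lists were chosen with earlier results of these data known.

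Among chromatin genes, 2 of 11 genes of DNA methylation rose (1, 1, 2 and 1 rises with 1 array left out) and 2 of 22 polycomb and histone modifier genes fell (2, 2, 2 and 1 falls with 1 array left out). Cbx8, a chromobox subunit of polycomb repressive complex 1, read 5.18 and 5.27 with FGF4 and 8.00 and 7.31 without and fell at least 4.56-fold (adjusted p = 0.00038). Ezh2, the methyltransferase of polycomb repressive complex 2, read 10.28 and 9.72 against 9.92 and 9.94 and did not pass (adjusted p = 0.933). Of the imprinted genes, 6 of 14 rose and 0 fell (3, 4, 3 and 3 rises with 1 array left out), with a median of 0.91. Both FGF4 arrays lay above both arrays without factor in 13 of them, against 35.3% of named genes. Dlk1, a Notch-related growth regulator, read 9.12 and 8.72 against 6.20 and 6.37 and rose by 2.64 ± 0.21 log2 units. Ascl2, a factor of the placenta, read 7.39 and 6.81 against 5.16 and 4.94 and rose at least 3.07-fold, and the cyclin-dependent kinase inhibitor gene Cdkn1c rose by 1.77 ± 0.23 log2 units. The rises of Phlda2, Slc22a18 and Gnas were lost without 1 array (adjusted p up to 0.12 without FGF4 shRnd1, 0.0994 without NoGF shRnd2 and 0.0955 without NoGF shRnd1), and the other probes of Slc22a18 and Gnas, at 0.30 (adjusted p = 0.431) for Slc22a18 and -0.04, 0.28 and 0.97 (adjusted p = 0.963, 0.421 and 0.0541) for Gnas, did not pass.

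Of 13 measured Hox genes (of 38 listed), which pattern the body axis, 8 fell (6, 7, 4 and 6 falls with 1 array left out) and 0 rose, with a median of -0.84 (-0.41 with bounds). Of the falls 4 kept their call whichever array was left out: Hoxb7, at 5.63 and 5.37 with FGF4 and 7.66 and 7.63 without, fell by 2.14 ± 0.18 log2 units, Hoxc9, at 4.74 and 4.58 and 6.61 and 6.61, fell at least 2.21-fold, Hoxc13 fell by 1.46 log2 units and Hoxa7 at least 2.03-fold. The levels lay near the lowest detected signal on the FGF4 arrays. Of 5 measured genes of the reproductive homeobox (Rhox) cluster on the X chromosome 3 fell, 0 rose and 2 did not pass, and 2 falls kept their call whichever array was left out. Rhox9 read 7.53 and 7.18 against 10.26 and 10.26 and fell by 2.91 ± 0.28 log2 units (adjusted p = 0.00035), and Rhox6 read 5.87 and 5.43 against 8.75 and 8.61 and fell by 3.03 ± 0.21 log2 units. Rhox6 and Rhox9 are close relatives, and the signal of their probes cannot be assigned to one of them with certainty. Their levels on the arrays labelled LIF, 9.49 and 9.24 for Rhox6 and 10.94 and 10.95 for Rhox9, were the highest of the control shRNA groups. Rhox5 read 11.54 and 11.43 against 12.49 and 12.60 and did not pass (adjusted p = 0.0585).

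In the list of surface ectoderm and simple epithelium 10 of 17 measured genes rose, with 2 falls (1, 1, 1 and 1 falls with 1 array left out) and a median of 1.07 (0.97 with bounds). Krt18 and Krt8, the keratin pair of simple epithelia, read 10.41 and 10.38 and 11.26 and 11.25 with FGF4 against 7.69 and 6.90 and 8.64 and 7.94, and rose by 3.10 ± 0.38 log2 units and by 2.96 ± 0.26 log2 units (adjusted p = 0.00103 and 0.00023). Krt19, a further simple epithelial keratin, rose at least 1.38-fold. Tfap2a, an AP-2 factor of ectoderm and neural crest, read 8.17 and 8.27 against 5.82 and 5.86 and rose by 2.38 ± 0.22 log2 units, and Ovol2, a zinc finger repressor of mesenchymal genes, read 8.77 and 8.33 against 6.10 and 6.40 and rose by 2.30 ± 0.21 log2 units. Grhl3, a grainyhead factor of the epidermis, went the other way, at 5.69 and 5.38 with FGF4 against 7.92 and 8.33, and fell by 2.59 ± 0.21 log2 units (adjusted p = 0.000142). Krt42, an acidic keratin, fell by 2.94 ± 0.38 log2 units.

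Other lineage lists held genes in both directions. Of 9 neural genes 3 rose and 2 fell: Sox11, a factor of early neural cells, read 8.68 and 8.58 against 5.12 and 5.21 and rose at least 8.83-fold, while Mapt, the microtubule protein tau, read 6.25 and 5.70 against 8.51 and 8.59 and fell by 2.57 ± 0.25 log2 units, and the adhesion gene Ncam1 fell at least 1.6-fold. The neuronal markers Dcx, Stmn2, Neurod1 and Elavl3 were detected on none of the 4 arrays. The neuronal beta-tubulin gene, the other marker listed, was detected on 2 of them, differed by -0.11 and did not pass (adjusted p = 0.858). Of 7 genes of the primitive streak and mesoderm 2 rose and 2 fell (2, 1, 1 and 1 rises; 1, 1, 1 and 1 falls with 1 array left out). Evx1, a homeobox gene of the posterior streak, read 9.21 and 9.66 against 5.90 and 6.24 and rose by 3.37 ± 0.40 log2 units (adjusted p = 0.000933), and Gsc, of the anterior streak, fell as given above. In the endoderm list 3 of 11 rose and 2 fell (1, 2, 1 and 1 falls with 1 array left out). The adaptor gene Dab2 rose at least 3.22-fold and the endocytic receptor gene Lrp2 by 1.60 ± 0.22 log2 units, both of visceral endoderm and other absorptive epithelia. Gata4, Gata6 and Sox17 read 5.10 and 5.70, 5.05 and 5.48 and 5.77 and 5.47 with FGF4 and 5.45 and 5.75, 5.47 and 5.09 and 4.75 and 5.02 without, and did not pass (adjusted p = 0.706, 0.979 and 0.078). Of 8 trophoblast genes 4 fell, Rhox6, Rhox9, Gata2 and Tead4, and Ascl2 rose. Tead4 read 6.08 and 6.15 against 7.68 and 7.64 and fell by 1.54 ± 0.16 log2 units, and one of its 3 probes, at -0.41 (adjusted p = 0.294), did not pass.

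Tight junctions seal the space between epithelial cells. Of 14 measured claudins and tight junction genes 8 rose and 0 fell (5, 4, 4 and 5 rises with 1 array left out), with a median of 0.98 (0.82 with bounds). Of the rises 3 kept their call whichever array was left out. These were Cldn6, Cldn3, which read 7.77 and 7.71 with FGF4 and 4.69 and 4.60 without and rose at least 4.77-fold (adjusted p = 0.000748), and Marveld3, a membrane protein of the junction, which read 6.85 and 7.23 against 4.79 and 4.92 and rose at least 2.94-fold. Cldn7, Cldn4 and F11r rose by 1.40, 1.07 and 1.03 on the fitted scale, and lost the call without 1 array (adjusted p up to 0.0522 without NoGF shRnd1, 0.0641 without FGF4 shRnd1 and 0.102 without NoGF shRnd1). The scaffold gene Tjp1 (ZO-1) read 7.30 and 7.31 against 7.17 and 6.97 and did not pass (adjusted p = 0.469). Of 12 genes of cadherins, catenins and desmosomes 4 rose and 0 fell, among them the desmosomal plakophilin gene Pkp2 (by 1.62 log2 units) and the protocadherin gene Pcdh1 (by 2.14 log2 units). Cdh1, E-cadherin, read 10.66 and 10.65 against 9.67 and 9.70 and rose by 0.97 ± 0.20 log2 units (adjusted p = 0.0114), a call lost without 1 array (adjusted p up to 0.0895 without NoGF shRnd1), and a second Cdh1 probe differed by 0.41 (adjusted p = 0.235) and did not pass.

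Of 17 genes of integrins and focal adhesions 5 rose and 0 fell (3, 2, 3 and 2 rises with 1 array left out). Zyx, zyxin of focal adhesions, read 10.54 and 10.46 against 8.45 and 8.45 and rose by 2.05 ± 0.18 log2 units, and the integrin gene Itgb5 rose by 1.79 ± 0.18 log2 units. Of 27 actin and myosin genes 8 rose and 2 fell (3, 5, 4 and 3 rises; 1, 0, 0 and 0 falls with 1 array left out). Tpm1, a tropomyosin, read 11.56 and 11.51 against 9.23 and 9.35 and rose by 2.25 ± 0.17 log2 units, and Pdlim7 rose by 1.82 ± 0.18 log2 units. The matrix list, 46 measured genes, held 7 rises and 7 falls (4, 4, 4 and 4 rises; 2, 4, 2 and 2 falls with 1 array left out) with a median of -0.03. Col4a2, a collagen IV chain of the basement membrane, read 5.96 and 6.59 with FGF4 against 8.38 and 8.04 and fell by 1.94 ± 0.27 log2 units (adjusted p = 0.00208), and Nid1, the linker nidogen, read 4.63 and 4.61 against 6.20 and 6.19 and fell at least 1.66-fold. Lamb3, a laminin chain of epithelial basement membranes, rose by 1.81 ± 0.23 log2 units, and the proteolysis genes Mmp2 and Timp3 by 1.49 log2 units and at least 2.03-fold.

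Antigen presentation is the display of protein fragments on MHC class I molecules. Of 18 genes of MHC class I and antigen processing 9 rose and 0 fell, with a median of 1.17 (0.96 with bounds), and 6 rises kept their call whichever array was left out. Psmb8, a catalytic subunit of the immunoproteasome whose promoter is shown above, read 9.09 and 8.73 with FGF4 and 5.55 and 5.56 without and rose by 3.36 ± 0.23 log2 units (adjusted p = 7.61e-05). The peptide transporter gene Tap1 read 7.49 and 7.52 against 4.99 and 5.05 and rose at least 4.06-fold (adjusted p = 0.000499). In both genes the FGF4 arrays lay above both arrays without factor, as in 35.3% of named genes. The arrays labelled LIF read 5.22 and 5.42 for Psmb8 and 4.73 and 5.09 for Tap1. H2-K1 and H2-D1, classical class I heavy chain genes, rose by 1.60 ± 0.17 log2 units and by 1.02 ± 0.17 log2 units; class I genes are near-identical in sequence and their probes may share signal. A second probe of H2-K1 differed by 0.39 (adjusted p = 0.287) and one of 3 probes of H2-D1 by 0.66 (adjusted p = 0.0812), and neither passed. B2m, the invariant light chain, read 9.65 and 9.41 against 9.09 and 9.07 and did not pass (adjusted p = 0.608). Of 38 measured subunits of the proteasome 3 rose and 0 fell, and the rises were the immunoproteasome genes Psmb8 and Psmb9 and the activator gene Psme1. Psmb10, the remaining catalytic subunit of the immunoproteasome, differed by 1.60 and did not pass (adjusted p = 0.0631), while a second probe of Psmb10 passed with a difference of 1.66 (adjusted p = 0.0323). Psmb9 lost its call without 1 array (adjusted p up to 0.0765 without NoGF shRnd1).

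In the interferon response list 7 of 17 rose and 3 fell (2, 2, 2 and 1 falls with 1 array left out). Irf1, a transcription factor that activates class I genes, read 10.66 and 10.74 against 7.96 and 7.66 and rose by 2.89 ± 0.20 log2 units (adjusted p = 7.52e-05). The interferon-inducible GTPase genes Gbp2 and Igtp rose at least 4.69-fold and at least 5.59-fold, Oasl2 at least 3.19-fold and the tethering factor gene Bst2 by 2.16 log2 units. Ifi27 read 5.89 and 5.99 against 7.50 and 7.44 and fell by 1.53 ± 0.21 log2 units. Of the antiviral genes that serve as common markers of the response, Isg15 read 5.80 and 5.94 against 5.47 and 5.40 and did not pass (adjusted p = 0.156), and Stat2 differed by -0.43 and did not pass either.

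**Figure D5:**
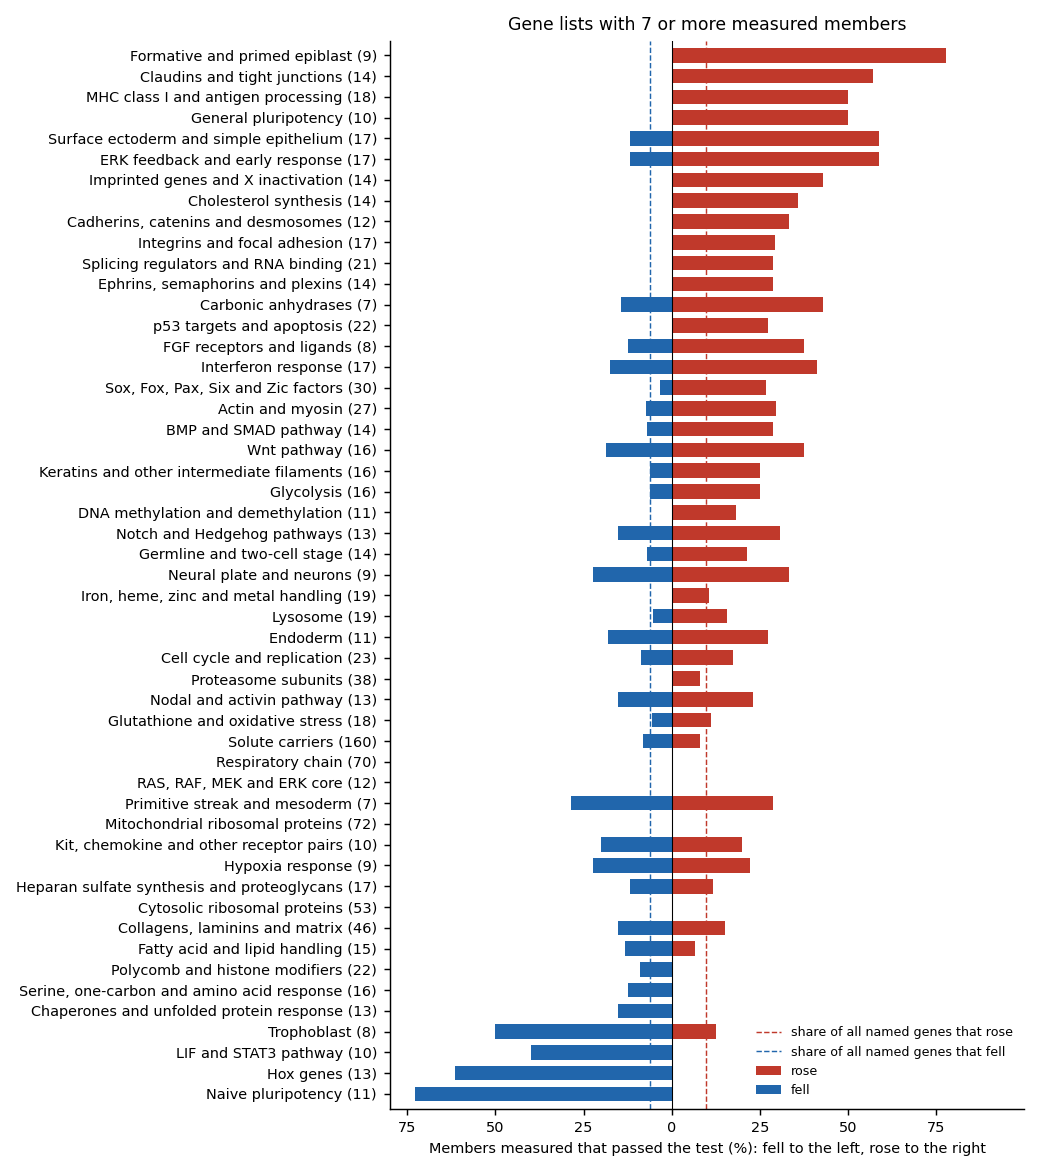
Share of the measured members of each gene list that rose (to the right) or fell (to the left) with FGF4, in percent, for the lists with 7 or more measured members, whose number is in brackets. Dashed lines mark the shares over all named genes, 9.75% risen and 6.19% fallen, and the lists at the top and bottom are formative and primed epiblast and naive pluripotency. The lists were chosen with earlier results of these data known.

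No member of 3 housekeeping lists passed. None of 53 cytosolic ribosomal protein genes, 72 mitochondrial ribosomal protein genes or 70 respiratory chain genes was called by limma, with medians of 0.01, 0.02 and -0.10. At an unadjusted p under 0.05 the counts were 2, 1 and 0. In the fit of the 6 control shRNA arrays, with 3232 calls over all features, 2 cytosolic ribosomal protein genes fell. There 1 mitochondrial ribosomal protein gene rose and 5 respiratory chain genes fell. Of 16 glycolysis genes 4 rose and 1 fell (2, 1, 1 and 1 rises with 1 array left out). The enolase gene Eno3 rose by 1.76 ± 0.27 log2 units, and the hexokinase gene Hk1 read 5.76 and 5.72 against 7.15 and 7.07 and fell by 1.37 ± 0.18 log2 units. Of 14 cholesterol synthesis genes 5 rose and 0 fell with a median of 0.54 (1, 0, 0 and 0 rises with 1 array left out). The largest of them, Ebp and Dhcr7, rose by 1.08 and 0.98, and lost the call without 1 array (adjusted p up to 0.106 without NoGF shRnd1 and 0.145 without NoGF shRnd2). Shmt2, the mitochondrial serine hydroxymethyltransferase, read 8.83 and 8.92 against 10.05 and 10.17 and fell by 1.24 ± 0.20 log2 units with a second probe at -0.81 (adjusted p = 0.159) that did not pass, and Acadl, an acyl-CoA dehydrogenase of fatty acid oxidation, rose by 1.87 ± 0.16 log2 units.

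Of 7 measured carbonic anhydrases 3 rose, Car4 among them, 1 fell and 3 did not pass. Car14, a second membrane-bound form, read 8.70 and 8.78 against 5.28 and 5.41 and rose at least 9.56-fold, and the cytosolic Car2 rose by 1.40 ± 0.19 log2 units. Car12, a further membrane form, fell by 1.11 ± 0.18 log2 units. Of 160 measured solute carriers 13 rose and 13 fell (8, 8, 7 and 7 rises; 6, 6, 5 and 6 falls with 1 array left out), shares of the order of the background, with Slc40a1 and the iodide transporter gene Slc5a5 (at least 4.8-fold) leading the rises. Slc25a20, the mitochondrial carnitine carrier, read 9.33 and 9.48 against 11.87 and 11.82 and fell by 2.44 ± 0.17 log2 units, and the glutamate transporter gene Slc1a1 fell at least 2.8-fold. Among iron genes 2 of 19 rose, Slc40a1 and Trf, transferrin (at least 1.55-fold). The ferritin heavy chain gene Fth1 differed by 0.52 and did not pass (adjusted p = 0.078). Of 18 genes of glutathione and oxidative stress, Mgst1, a microsomal glutathione transferase, rose at least 3.97-fold and the mitochondrial superoxide dismutase gene Sod2 read 11.65 and 11.48 against 13.11 and 13.28 and fell by 1.63 ± 0.29 log2 units, a call lost without 1 array (adjusted p up to 0.0654 without NoGF shRnd2). Ctsc, a lysosomal dipeptidyl peptidase, rose at least 3.03-fold. In the chaperone list 2 of 13 fell and 0 rose (1, 1, 1 and 1 falls with 1 array left out), with the disulfide isomerase gene Pdia6 at 7.24 and 7.31 against 8.65 and 8.67, where a second probe differed by -0.53 (adjusted p = 0.131) and did not pass.

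Of 23 cell cycle and replication genes 4 rose and 2 fell (3, 2, 3 and 2 rises; 0, 0, 0 and 0 falls with 1 array left out). Ccnd2, a D-type cyclin that drives entry into S phase, read 7.00 and 7.33 with FGF4 and 4.82 and 4.73 without and rose at least 3.2-fold (adjusted p = 0.000174). Ccnd1 read 11.38 and 11.19 against 11.08 and 11.20 and did not pass (adjusted p = 0.857), and Ccnd3 fell by 0.76, a call lost without 1 array (adjusted p up to 0.175 without NoGF shRnd2). The replication and division genes Pcna and Top2a differed by 0.29 and 0.21 and did not pass. Of 22 genes known as p53 targets or from apoptosis 6 rose and 0 fell (4, 2, 4 and 3 rises with 1 array left out). Sfn, which encodes 14-3-3 sigma, a p53 target that is also expressed in epithelia, read 8.39 and 7.94 against 5.83 and 6.03 and rose by 2.23 ± 0.22 log2 units (adjusted p = 0.000414), and Pmaip1 (Noxa), a BH3-only protein, rose at least 2.6-fold.

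Probes without a gene name here made up 5170 of the features tested, with 235 rises (4.55%) and 546 falls (10.6%), 15.1% together. Of these unnamed probes 2910 were outside the deposited value table, with 97 rises and 443 falls and a median of -0.21. The largest fall of all features, of the unnamed probe ILMN_1255416, was by 6.34 log2 units, and that of ILMN_1254295 by 4.90. When the features were split by mean level into 4 bins of equal size, 134 of the 3526 brightest rose and 182 fell, against 371 and 360 of the 3526 in the bin above the dimmest.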

How the data were processed

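Total RNA of 8 samples was labelled and hybridised to Illumina arrays, per the labels' protocols, which name Trizol B for extraction and an Ambion amplification kit. The deposited non-normalized table gives 45281 probes, each with 1 linear intensity and 1 detection p-value per array, per the file headers. Which scanner software and processing tools the authors used is not given in the sources used here. The decimal point was missing from 294271 of 362248 intensity cells (81.2%), and it was restored from the number of digits and, for 207338 cells with 2 possible readings, from the detection p-value beside it. After that the lowest intensity with a detection p-value of 0 lay above the highest with a p-value above 0 on every array. For the cells with 2 possible readings this order follows from the rule itself, so it cannot show whether their reading was right. A deposited value table of intensities on the same arrays was used only without names, because 0 of its 5752 rows matched by profile carried the same probe ID, and ribosomal protein probes lay at a median percentile of 99.6 in the non-normalized table and 55.3 in the value table. Columns left out for lack of a sample numbered 0.

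Symbols come from the platform annotation: 32245 probes had 1 symbol, 17 several and 13019 none, and 32170 had a RefSeq gene ID (GRCm38.p6). Limma 3.58.1 in R 4.3.3 was used: neqc (normexp with controls inferred from the detection p-values, offset 16, quantile normalization, log2), detection p-values under 0.05 required on 2 or more of 8 arrays, the brightest probe per symbol, and 4 group means fitted over 8 arrays (4 residual and 4.18 prior degrees of freedom), two-sided, Benjamini-Hochberg over all 14103 features, threshold 0.05. The fit was tested on simulated data first. Fold bounds set a dim group at the higher of its own signal and the lowest detected signal. Groups follow the array titles; the treatment note names the Rnd1 shRNA for both LIF samples, which leaves the shRNA of one in doubt. An exact permutation test of 2 against 2 arrays cannot go below p = 0.333, so no single value was tested that way. Named are the 25 largest rises and falls detected on both arrays of the higher group, list members by size of change or level, markers and the 2 largest unnamed changes. The comparison, the 55 gene lists and the motifs were chosen with earlier results of these data known, so list counts carry no test. Alternatives changed the normalization, the filter, the prior, the arrays in the fit and the replicate block.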

Additional observations from a re-analysis of the deposited data

How the results depend on the processing

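The main count was 2205 features past the threshold (1106 rises and 1099 falls). It stayed within 1.5 times of that without background correction (2161), with array medians in place of quantiles (1660), with an intensity trend and robust prior (2204), with no filter (2141), a stricter filter (2078) or every probe kept (2688), in the deposited value table without names (2327), with either LIF array left out (2059), and with the arrays labelled LIF in place of those labelled no growth factor (2212), an alternative chosen after seeing the data. It was 3858 in a fit of the 4 arrays compared alone, 3232 with the 6 control shRNA arrays and 4112 with array weights, fits whose residual SD is estimated without, or with less weight on, the more variable Mp1 shRNA arrays. Among features whose intensities had 1 reading by their digits (8183 tested) it was 738, and the cause was not tested. Of the named genes tested there, the call was unchanged for 67 and ended for 2. The other named genes could not be checked that way. Leaving out each array in turn gave 1008 to 3232. With the shRNA number as a replicate block it was 3644 (4 arrays) and 2975 (6 arrays). The shRNA numbers come from the array titles. The deviations of arrays with the same number had a correlation of -0.07 between FGF4 and no growth factor, and 2 pairs cannot settle whether the arrays were paired. Of the features called by the main fit, 0 changed direction in the alternatives that test the same features against no growth factor. Fits that changed only the filter, the prior, the block, the weights or the arrays outside the comparison kept each feature's difference, so its sign could not turn there. The count of 0 therefore bears only on the changed normalization and on leaving out 1 of the 4 arrays compared. Of the 207 genes named, array medians ended the call of 9, no filter of 11 and no background correction of 6, and leaving out 1 of the 4 arrays compared ended 21 to 29. The number of called members moved by over 1.5 times in 8 of the 55 lists with array medians, 3 without background correction, 15 with the 6 control shRNA arrays and 20 to 25 with 1 of the 4 arrays left out. With the arrays labelled LIF 10 calls ended, and the difference turned for Socs3, to 0.39 (adjusted p = 0.201), and Lefty1, to -0.53 (adjusted p = 0.187), and the cause was not tested. Dim genes are limited by signal over background, and their folds are lower bounds.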

Other observations

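Some gene groups outside the accounts above also held called members. Of 30 measured genes of the Sox, Fox, Pax, Zic and related factor families 8 rose and 1 fell (5, 5, 4 and 6 rises; 0, 0, 0 and 0 falls with 1 array left out). Sox10, a factor of neural crest, read 6.33 and 6.06 with FGF4 and 4.69 and 4.66 without and rose at least 1.63-fold (adjusted p = 0.000846). Among 21 splicing regulators and RNA-binding protein genes 6 rose and 0 fell (3, 3, 2 and 3 rises with 1 array left out). Celf2, a splicing and RNA stability factor, read 6.73 and 6.85 against 4.76 and 4.76 and rose at least 2.47-fold. In the list of germline and two-cell stage genes 3 of 14 rose and 1 fell (3, 1, 1 and 2 rises with 1 array left out). Taf7l, a germ cell subunit of the general transcription factor TFIID, rose by 1.69 ± 0.27 log2 units. Zscan4c, a gene of the two-cell-like state with near-identical relatives that its probe may also measure, read 7.09 and 7.61 against 5.15 and 5.15 and rose at least 3.65-fold, a call lost without 1 array (adjusted p up to 0.0869 without FGF4 shRnd2). Of 9 hypoxia response genes 2 rose and 2 fell (1, 1, 1 and 1 rises; 1, 1, 1 and 1 falls with 1 array left out), and Egln3, a prolyl hydroxylase that marks HIF for breakdown, rose by 1.55 ± 0.17 log2 units.

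By chromosome, 43 of 305 measured genes on the X chromosome rose with FGF4 (14.1%) and 16 fell (5.25%), and 42 of 293 on chromosome 12 rose (14.3%) and 14 fell (4.78%), against 9.75% and 6.19% of all named genes. On chromosome 2, 54 of 686 rose (7.87%) and 24 fell (3.50%). The named genes just inside the threshold were Yaf2, Nup98, Tial1, Kcnj4 and Ildr1, with differences of 0.63, -0.95, 0.79, 0.84 and -1.17, and those just outside were B3gnt5, Gtdc1, Pkia, Cdc14b and Gpr146, with 1.13, 0.78, 0.71, 0.66 and -1.03. Second probes of Nup98 and Tial1, at -0.51 (adjusted p = 0.169) and -0.08 (adjusted p = 0.908), did not pass, and a second probe of Cdc14b, at 0.69 (adjusted p = 0.0434), did.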
